A study of Homo sapiens with 6 samples.

Results

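Human chromosome 19 carries large clusters of genes for zinc finger proteins, and 272 gene symbols of the form ZNF or ZFP followed by a number were listed on it in the deposited tables. Of these, 224 reached 1 TPM (a transcript level scaled to gene length and to a fixed library total) in at least 2 of 6 libraries and are described here; 48 did not. Polyadenylated RNA was sequenced from PC9-AMG, PC9-BrM4 and PC9 cells, all human lung cancer lines grown under ordinary conditions, with 2 libraries per line. PC9 comes from a lung adenocarcinoma and carries a mutant EGFR; PC9-BrM4 is a subline that earlier work selected for metastasis to the brain. The sources used here give neither the meaning of AMG nor the origin of that subline, and name no treatment of any line. Nothing in the labels ties the libraries of a line to separate cultures, so the p-values speak for the spread between these libraries alone, part of which may be technical.

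Most of these genes encode C2H2 zinc finger proteins, in which repeated fingers, each folded around a zinc ion, read DNA sequence. Many also carry a KRAB domain, which binds the corepressor TRIM28 (KAP1); TRIM28 in turn brings in the histone methyltransferase SETDB1 and HP1 proteins, which together build heterochromatin. KRAB zinc finger genes arose by tandem duplication, are especially numerous on chromosome 19, and are best known for silencing retroelements in embryonic cells.

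The epithelial markers EPCAM, KRT8, KRT18, KRT19 and CDH1 summed to 7553 to 11198 TPM per library. The 4 lung lineage markers stayed below 1 TPM, with SFTPC at 0 in all 6 libraries and NKX2-1 at 0 in 5 of them, so the lung label rests on the line's name. All 4 leukocyte markers were below 1 TPM in every library, and of the fibroblast and endothelial markers COL1A2 and DCN were at 0, while COL1A1 reached 14.8 TPM in PC9-AMG and PECAM1 2.03 TPM in PC9. Of the neural and glial markers, MBP stood at 28.3 to 33.2 TPM and RBFOX3 at 0. The aligned sequence behind a library was estimated at 2.66 to 4.39 gigabases, from the ratio of deposited coverage to FPKM.

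Of the 224 genes, 211 had a protein-coding transcript in the annotation, with a median of 12 finger patterns in the longest reading frame. ZNF91 had the most, 31, and ZNF738 none by this search. A letter pattern for the KRAB domain was found in 179 of the 211, and 32 lacked it, a few of which have a divergent KRAB domain. The rest included 5 antisense RNAs, 7 pseudogenes by symbol and the readthrough model ZNF625-ZNF20. The coding gene ZFP36 belongs to another class: it encodes tristetraprolin, a CCCH finger protein that binds AU-rich elements in messenger RNA and speeds its decay. Paralogs share long stretches of sequence, and the sources used here do not give how reads matching several of them were assigned, so the levels of pseudogenes and of close paralogs are uncertain.

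These transcripts were scarce. The median gene stood at 6.43 and 5.81 TPM in PC9-AMG, 4.78 and 5.11 TPM in PC9-BrM4, and 5.32 and 5.06 TPM in PC9, while the median of all 14195 genes tested lay between 19.96 and 21.1 TPM. Averaged over the 6 libraries, 63 of the 224 genes reached 10 TPM, 155 lay between 1 and 10 TPM and 6 were below 1 TPM. In all 6 libraries 202 genes were at 1 TPM or more. ZNF257 passed the filter through PC9-BrM4 alone. Just inside the filter, the second highest library of ZNF812 stood at 1.01 TPM and that of ZNF69 at 1.03 TPM. Just outside it, ZNF470 stood at 0.908 TPM and ZNF577 at 0.713 TPM.

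The most abundant was ZNF146, which encodes a protein made almost entirely of fingers, at 99.4 and 87.9 TPM in PC9-AMG, 90.6 and 95.8 TPM in PC9-BrM4, and 88.9 and 82.3 TPM in PC9. The PC9-AMG libraries overlapped those of both other lines, those of PC9-BrM4 lay above those of PC9, and it was not called in any comparison; it overlaps ZNF565 on the opposite strand. ZNF787, ZNF114, ZNF581, ZNF358, ZNF274, ZNF580, ZNF444, ZNF428 and ZNF83 followed. ZNF358, near the end of the short arm, differed little between lines: 32.8 and 34.6 TPM in PC9-AMG, 33.5 and 35.4 TPM in PC9-BrM4, and 32.5 and 30.4 TPM in PC9, with no call.

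At the other end, 12 of the 272 symbols were listed at 0 in all 6 libraries. Of 14 zinc finger genes of the chromosome known to be methylated at their promoters in cancers, 9 fell below the filter and 5 passed it. Of all 272 symbols, 48 fell below it. ZNF667 and ZNF135 were listed at 0 throughout, and ZNF154 did not exceed 0.0922 TPM or ZNF382 0.124 TPM in any library. ZNF677 lay between 0.538 and 0.819 TPM and ZNF671 between 0.304 and 0.796 TPM, both below the filter in every library. ZNF331, an imprinted member of the same list, was well expressed, at 25.9 and 25.2 TPM in PC9-AMG, 16.8 and 18.5 TPM in PC9-BrM4, and 18.1 and 18.3 TPM in PC9. Methylation itself was not measured.

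Promoters of 195 of the 224 genes were found in the RefSeq table (GRCh38.p14; 250 bases before and 50 after the start). The sequence CGGAAG, the core that ETS family factors recognise, occurred on either strand in 62.1% of them, against 19.5% of all 35116 promoters and 23.8% of 1637 other promoters of the chromosome. CCAAT was found in 52.3%, against 34.6% of all promoters, and TATAAA in 2.05%, against 11.5%. The 195 belong to genes that passed the expression filter, whereas the comparison promoters were not filtered by expression. The part of expression in these contrasts was not tested. A match describes letters only. Shown are a pair of paralogs from the cluster that was lower in PC9-AMG (ZNF43 and ZNF91), a pair of neighbouring paralogs from a cluster that was higher (ZNF419 and ZNF773), the gene with one of the largest rises in both sublines (ZNF787), and the gene with the largest fall in PC9-AMG (ZNF44). They lie at chr19:21836133-21836432, minus strand; chr19:23395422-23395721, minus strand; chr19:57487500-57487799, plus strand; chr19:57499688-57499987, plus strand; chr19:56121246-56121545, minus strand; and chr19:12294834-12295133, minus strand. Each reads 5′ to 3′ on the gene's strand, and capitals mark CGGAAG or its reverse complement CTTCCG.
ZNF43: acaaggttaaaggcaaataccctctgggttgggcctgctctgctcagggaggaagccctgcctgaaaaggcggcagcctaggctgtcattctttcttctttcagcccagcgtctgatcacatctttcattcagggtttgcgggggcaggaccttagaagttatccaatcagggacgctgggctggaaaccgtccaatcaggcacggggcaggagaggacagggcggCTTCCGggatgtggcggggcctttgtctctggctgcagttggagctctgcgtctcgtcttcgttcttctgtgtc
ZNF91: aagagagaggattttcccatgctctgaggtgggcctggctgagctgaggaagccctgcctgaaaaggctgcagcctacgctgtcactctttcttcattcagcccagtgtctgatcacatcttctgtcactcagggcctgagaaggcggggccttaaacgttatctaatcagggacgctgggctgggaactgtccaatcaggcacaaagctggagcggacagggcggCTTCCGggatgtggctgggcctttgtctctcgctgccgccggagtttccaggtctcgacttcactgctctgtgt
ZNF419: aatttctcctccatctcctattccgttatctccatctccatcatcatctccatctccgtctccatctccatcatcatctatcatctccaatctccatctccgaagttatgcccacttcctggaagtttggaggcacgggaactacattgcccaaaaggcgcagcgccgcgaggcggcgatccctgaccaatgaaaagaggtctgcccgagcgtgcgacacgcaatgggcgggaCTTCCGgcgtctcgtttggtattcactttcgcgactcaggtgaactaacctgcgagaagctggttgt
ZNF773: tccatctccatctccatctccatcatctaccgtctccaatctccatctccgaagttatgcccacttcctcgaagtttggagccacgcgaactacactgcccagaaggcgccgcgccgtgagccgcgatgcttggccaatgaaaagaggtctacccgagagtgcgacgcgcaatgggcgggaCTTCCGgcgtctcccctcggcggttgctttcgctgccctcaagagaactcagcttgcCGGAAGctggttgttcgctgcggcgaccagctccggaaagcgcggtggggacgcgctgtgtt
ZNF787: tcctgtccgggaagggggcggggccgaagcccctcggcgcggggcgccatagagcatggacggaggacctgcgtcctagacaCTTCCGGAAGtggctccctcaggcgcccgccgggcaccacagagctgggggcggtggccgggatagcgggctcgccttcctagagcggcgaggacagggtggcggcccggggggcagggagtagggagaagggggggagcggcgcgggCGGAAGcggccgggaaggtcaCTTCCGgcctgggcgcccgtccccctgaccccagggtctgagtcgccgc
ZNF44: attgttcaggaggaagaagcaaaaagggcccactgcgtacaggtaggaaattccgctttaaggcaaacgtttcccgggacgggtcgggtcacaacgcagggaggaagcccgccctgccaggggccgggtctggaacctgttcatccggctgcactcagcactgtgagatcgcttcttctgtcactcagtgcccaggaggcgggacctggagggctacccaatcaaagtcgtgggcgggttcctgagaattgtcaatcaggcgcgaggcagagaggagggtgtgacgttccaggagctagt
In a global alignment ZNF43 and ZNF91 shared 245 of 300 bases, and ZNF419 and ZNF773 shared 217. Identities among the other pairs ran from 166 to 187 bases. The windows of ZNF43, ZNF91 and ZNF419 held 1 core each, that of ZNF773 2, that of ZNF787 4, of which 2 overlap on opposite strands, and that of ZNF44 0.

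Levels were compared on log2(TPM + 1), with limma fitted to all 6 libraries and 14195 genes, and a gene was called at a Benjamini-Hochberg adjusted p below 0.05 over all of them. Differences below are on that scale with their standard errors, and the scale understates changes of low genes. In bulk RNA, a lower level in every cell and loss from a share of the cells cannot be told apart. The comparisons of both sublines with PC9 share the PC9 libraries.

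In PC9-AMG, more of the chromosome 19 zinc finger genes were called higher than lower relative to PC9. Of the 224, 94 were called higher and 38 lower, 58.9% in all, and 92 were not called. Over all genes tested 55.5% were called, 27.8% higher and 27.7% lower, so a larger share of the zinc finger genes was called higher and a smaller share lower. Their median difference was 0.22, against -0.01 for all genes tested. Their summed level was 2208 and 2069 TPM in PC9-AMG, 1668 and 1790 TPM in PC9-BrM4, and 1687 and 1623 TPM in PC9. The 256 zinc finger genes named the same way on other chromosomes had 57 called higher and 65 lower, with a median of -0.02. The 789 other tested genes of chromosome 19 had 448 called higher and 94 lower, with a median of 0.29. The chromosome's other genes thus leaned the same way as its zinc finger genes, while zinc finger genes of other chromosomes were split about evenly.

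**Figure D1:**
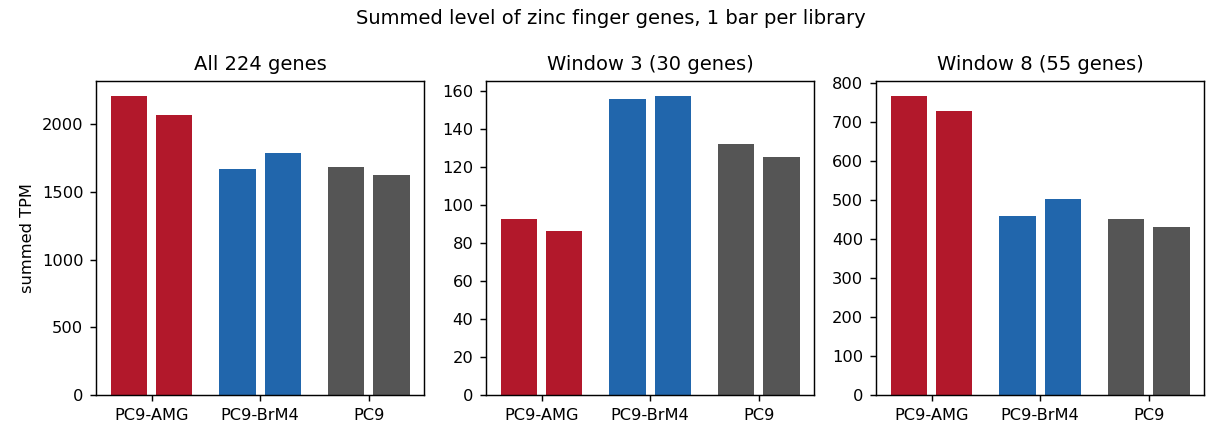
Summed TPM of the zinc finger genes of chromosome 19 in each library (1 bar per library; axes start at 0), for all 224 genes, for the 30 genes between 14 and 25 Mb (window 3) and for the 55 genes between 54 and 59 Mb (window 8). PC9-AMG is lowest in window 3, at 92.5 and 86.4 TPM, and highest in window 8, at 766 and 729 TPM.

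The direction followed position along the chromosome, which was divided into 8 windows around the known clusters. In the last window, from 54 Mb to the end of the long arm, 49 of 55 zinc finger genes were called higher in PC9-AMG than in PC9 and 1 lower, with a median of 0.57. The 58 other tested genes there had 44 called higher and 3 lower, with a median of 0.61. Between 43 and 46 Mb 15 of 21 zinc finger genes were called higher and 0 lower (median 0.43). Of the 56 other tested genes there, 43 were called higher and 2 lower (median 0.55). Between 46 and 54 Mb 20 of 41 zinc finger genes were called higher and 3 lower (median 0.27). Without PC9-AMG replicate 1 fewer of the 41 were called higher (median 0.22). Of the 130 other tested genes there, 88 were called higher and 6 lower (median 0.38).

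The cluster around the centromere went the other way. Of 30 zinc finger genes between 14 and 25 Mb, 21 were called lower in PC9-AMG and 1 higher, with a median of -0.45. The 118 other genes of that window had 55 called lower and 20 higher, with a median of -0.21. The summed level of the 30 genes was 92.5 and 86.4 TPM in PC9-AMG, 156 and 157 TPM in PC9-BrM4, and 132 and 125 TPM in PC9, without overlap between any lines. Between 25 and 39 Mb 5 of 34 zinc finger genes were called higher and 2 lower (median 0.11), while of 91 other genes 53 were called higher and 4 lower (median 0.29). Without PC9-AMG replicate 1 the 5 became 1, and without PC9 replicate 2 they became 3. The windows from 0 to 8 Mb and from 39 to 43 Mb held 5 zinc finger genes each, with 0 called in the first and 3 higher in the other, where 105 of 166 and 46 of 70 other genes were called higher.

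Between 8 and 14 Mb the medians of the zinc finger genes and of their neighbours lay on opposite sides of 0. Of 33 zinc finger genes 11 were called lower in PC9-AMG than in PC9 and 1 higher (median -0.17), while of 100 other genes 49 were called higher and 11 lower (median 0.22). Without PC9 replicate 1, or without PC9-AMG replicate 2, 6 of the 33 were called lower. Most of the falls lay in a stretch from ZNF653 to ZNF791 that was chosen after the values were seen, where 10 of 19 zinc finger genes were lower and 0 higher, against 0 lower and 1 higher of the 4 other tested genes between them.

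**Figure D2:**
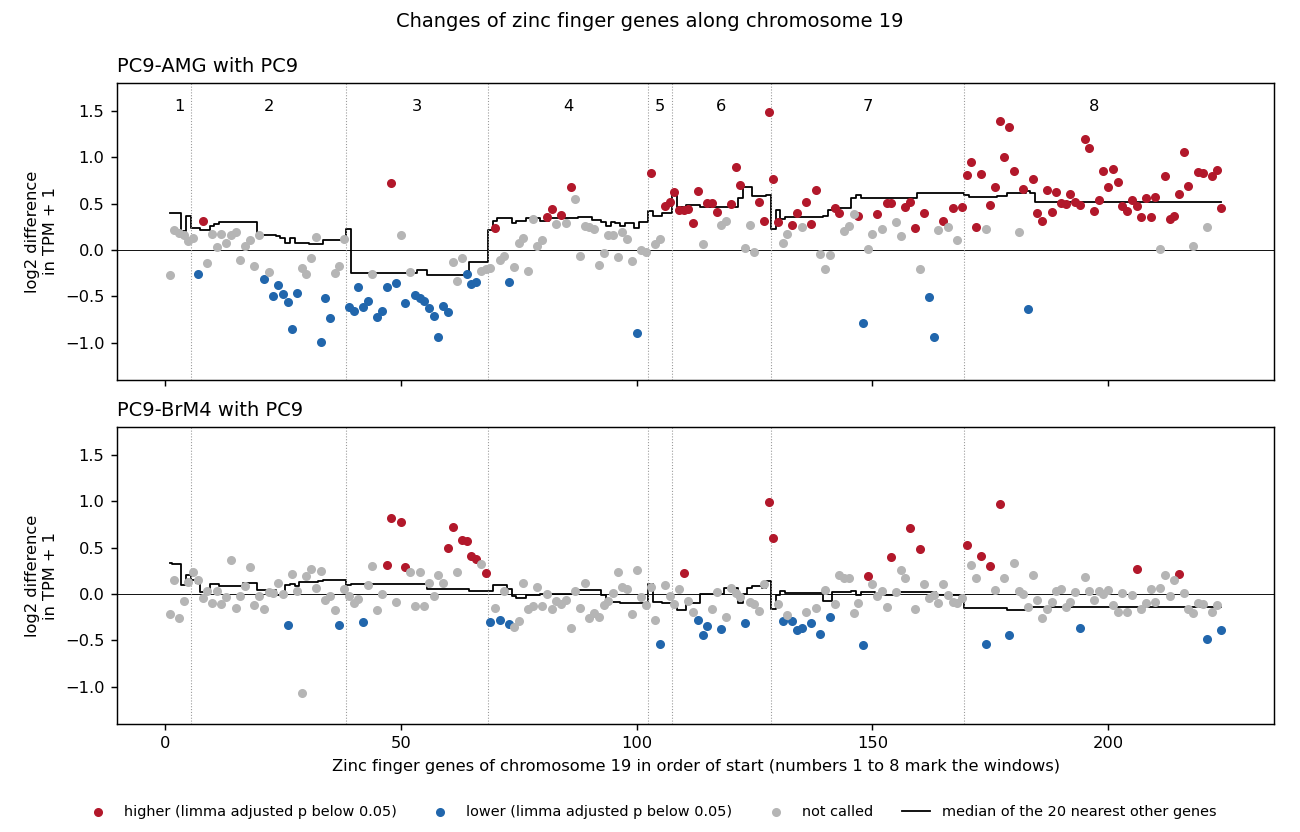
Log2 difference in TPM + 1 of each of the 224 zinc finger genes (points, in order of their start along chromosome 19) for PC9-AMG with PC9 (above) and PC9-BrM4 with PC9 (below); dotted lines and the numbers 1 to 8 mark the windows, and the black line is the median of the 20 nearest other tested genes. In PC9-AMG blue points gather in windows 2 and 3 and red points from window 5 on, and in window 2 the blue points lie below a black line that is above 0.

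**Figure D3:**
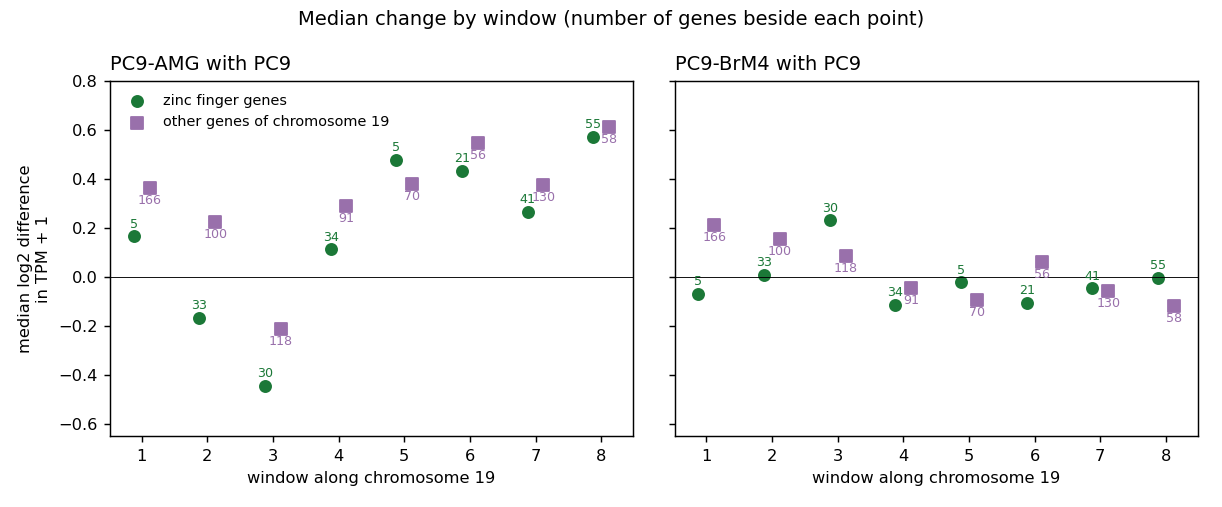
Median log2 difference in TPM + 1 in each of 8 windows, for zinc finger genes (circles) and other tested genes of chromosome 19 (squares), with the number of genes beside each point. In PC9-AMG both medians are below 0 in window 3, at -0.45 and -0.21, while in window 2 they lie on either side of 0, at -0.17 and 0.22.

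Because the neighbours moved too, each gene was also set against the median of the 20 nearest other tested genes of the chromosome, an alternative chosen after seeing the data. On that footing the counts in PC9-AMG turned round: 26 of the 224 zinc finger genes were called higher than PC9 relative to their neighbours and 67 lower. Over all genes tested, without that baseline, 27.8% were called higher and 27.7% lower. The share of zinc finger genes called lower was thus near that of all genes, and the share called higher was below it. In the last window 19 were higher and 6 lower, between 14 and 25 Mb 2 were higher and 10 lower, and between 8 and 14 Mb 0 were higher and 16 lower. Between 46 and 54 Mb 2 were higher and 16 lower, and between 25 and 39 Mb 0 were higher and 14 lower. The direction of the count over all 224 genes therefore depends on whether neighbours are taken as the baseline.

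The leading rises in PC9-AMG lay on the long arm, that of ZNF296 between 43 and 46 Mb and most others beyond 54 Mb. ZNF296, whose mouse counterpart is active in pluripotent cells, was at 6.499 and 7.42 TPM in PC9-AMG, 4.34 and 4.96 TPM in PC9-BrM4, and 1.83 and 1.83 TPM in PC9. The 3 lines did not overlap, with PC9 lowest. It was higher by 1.49 ± 0.11 in PC9-AMG than in PC9 (limma adjusted p = 4.07e-05), where its neighbours had a median of 0.60.

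ZNF787 was the second most abundant of the 224 genes, at 72.5 and 69.8 TPM in PC9-AMG, 47.7 and 58.4 TPM in PC9-BrM4, and 26.7 and 26.4 TPM in PC9. Again the lines did not overlap and PC9 was lowest. The difference of PC9-AMG from PC9 was 1.39 ± 0.09 (limma adjusted p = 2.68e-05), and that of its neighbours had a median of 0.58. Nearby, ZNF444, a SCAN-domain gene, stood at 40.0 and 41.0 TPM in PC9-AMG, 20.6 and 24.03 TPM in PC9-BrM4, and 20.6 and 18.8 TPM in PC9. ZNF579 stood at 22.6 and 21.8 TPM in PC9-AMG, 12.4 and 15.6 TPM in PC9-BrM4, and 12.1 and 10.002 TPM in PC9. Both were highest in PC9-AMG, by 1.01 ± 0.08 and 0.95 ± 0.12 against PC9 (limma adjusted p = 7.67e-05 and 0.000524).

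In the most distal cluster, the adjacent paralogs ZNF419 and ZNF773, whose promoters are shown above, moved alike. ZNF419, a variant of which gives rise to a minor histocompatibility antigen, was at 18.8 and 17.8 TPM in PC9-AMG, 8.50 and 8.57 TPM in PC9-BrM4, and 7.64 and 7.14 TPM in PC9. ZNF773 was at 16.1 and 14.8 TPM in PC9-AMG, 6.56 and 7.02 TPM in PC9-BrM4, and 6.56 and 6.70 TPM in PC9. PC9-AMG stood alone in both genes, while PC9-BrM4 and PC9 lay close together. The differences from PC9 were 1.20 ± 0.08 and 1.10 ± 0.08 (limma adjusted p = 2.67e-05 and 4.77e-05), against a neighbour median of 0.52.

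ZNF544 was at 32.3 and 31.5 TPM in PC9-AMG, 14.4 and 15.3 TPM in PC9-BrM4, and 14.5 and 15.0 TPM in PC9. It rose by 1.06 ± 0.07 against PC9 (limma adjusted p = 2.28e-05). ZNF274, a KRAB protein that brings SETDB1 to the zinc finger gene clusters themselves, rose to 38.6 and 36.0 TPM in PC9-AMG, against 28.6 and 27.9 TPM in PC9-BrM4 and 24.7 and 23.7 TPM in PC9. Its difference from PC9 was 0.60 ± 0.06 (limma adjusted p = 0.000171), close to the neighbour median of 0.52. ZNF304, a KRAB repressor linked to silencing of the INK4-ARF locus in colorectal cancer cells, rose by 0.63 ± 0.08 (limma adjusted p = 0.00043), and ZNF264 by 0.40 ± 0.11 (limma adjusted p = 0.0141), the ZNF264 call being lost without PC9-AMG replicate 1 or without PC9 replicate 2 (limma adjusted p up to 0.0919). ZNF331 rose by 0.46 ± 0.07 (limma adjusted p = 0.000923), less than its neighbours' median of 0.62.

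Outside the KRAB clusters, ZFP36 was at 33.7 and 32.5 TPM in PC9-AMG, 19.5 and 18.8 TPM in PC9-BrM4, and 18.1 and 18.2 TPM in PC9. PC9-AMG stood above both other lines, by 0.83 ± 0.06 against PC9 (limma adjusted p = 4.22e-05). ZNF473, which encodes a component of histone messenger RNA processing (ZFP100), was higher by 0.30 ± 0.09 (limma adjusted p = 0.0239), a call lost without the filter and when any library of the 2 lines was left out (limma adjusted p up to 0.111). ZNF83 stood at 25.3 and 23.6 TPM in PC9-AMG and 24.7 and 24.04 TPM in PC9, with no call and a difference of 0.01 ± 0.06, where its neighbours had a median of 0.57.

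The largest fall was that of ZNF44, a KRAB gene of the short-arm cluster, at 0.950 and 0.859 TPM in PC9-AMG, 3.34 and 3.64 TPM in PC9-BrM4, and 2.61 and 2.97 TPM in PC9. PC9-AMG lay below both other lines. The difference from PC9 was -0.99 ± 0.11 (limma adjusted p = 0.000239), while its neighbours had a median of 0.07. In the same cluster ZNF433 was at 0.507 and 0.494 TPM in PC9-AMG, 2.33 and 1.96 TPM in PC9-BrM4, and 1.76 and 1.65 TPM in PC9. ZNF443 was at 1.83 and 1.58 TPM in PC9-AMG, 3.26 and 3.63 TPM in PC9-BrM4, and 3.32 and 3.69 TPM in PC9. Both fell, by 0.85 and 0.74 on the log2 scale against PC9 (limma adjusted p = 0.000643 and 0.000983).

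Around the centromere ZNF429 stood at 1.74 and 1.32 TPM in PC9-AMG, 4.51 and 4.61 TPM in PC9-BrM4, and 3.88 and 3.77 TPM in PC9. ZNF682 was at 0.627 and 0.498 TPM in PC9-AMG, 1.44 and 1.13 TPM in PC9-BrM4, and 1.58 and 1.56 TPM in PC9. PC9-AMG was lowest in both, with differences from PC9 of -0.94 ± 0.11 and -0.72 ± 0.12 (limma adjusted p = 0.000361 and 0.00191). The exception in this window was the pseudogene ZNF826P, which was higher in PC9-AMG than in PC9 by 0.73 ± 0.11 (limma adjusted p = 0.00125).

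A few genes fell amid rising surroundings. ZFP30, linked in mouse airways to the recruitment of neutrophils, was at 1.38 and 1.09 TPM in PC9-AMG, 3.95 and 3.93 TPM in PC9-BrM4, and 3.36 and 2.92 TPM in PC9. The pseudogene ZNF818P was at 1.17 and 1.296 TPM in PC9-AMG, 3.06 and 3.45 TPM in PC9-BrM4, and 3.55 and 3.02 TPM in PC9. In both, PC9-AMG alone was low, with differences from PC9 of -0.89 ± 0.11 and -0.94 ± 0.11 (limma adjusted p = 0.000517 and 0.000385) beside neighbour medians of 0.23 and 0.62. ZFP28 alone was called lower in the last window, at 0.602 and 0.474 TPM in PC9-AMG, 1.17 and 1.15 TPM in PC9-BrM4, and 1.57 and 1.22 TPM in PC9 (-0.64 ± 0.12, limma adjusted p = 0.00374).

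**Figure D4:**
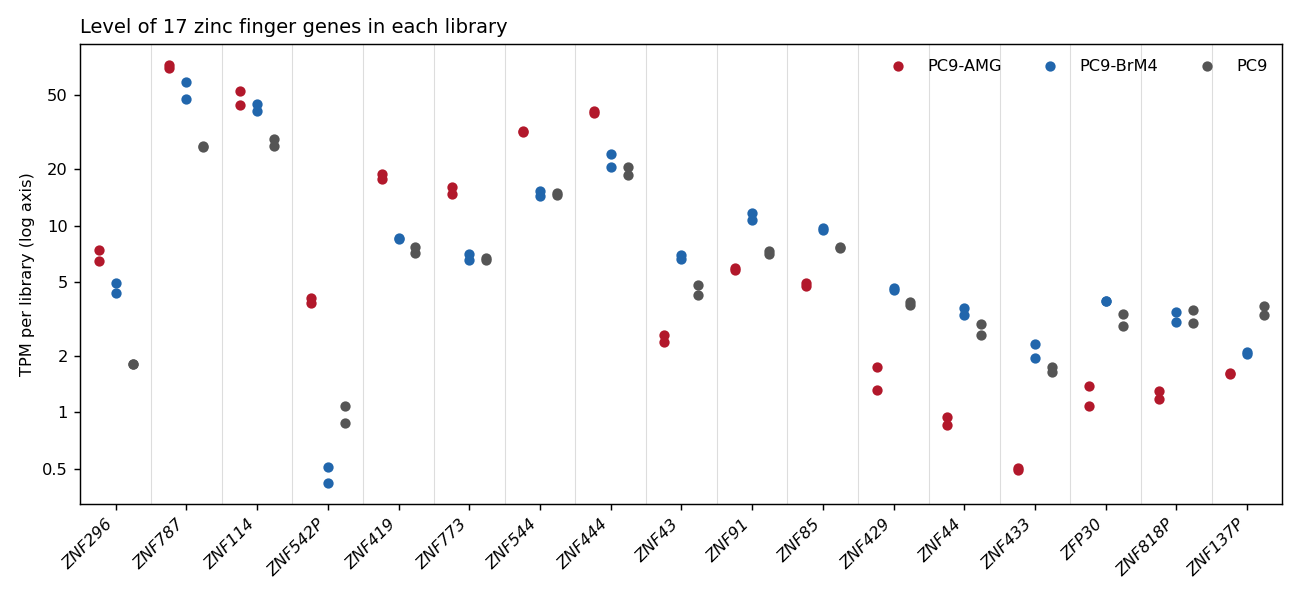
TPM on a log axis in each library (points) of 17 zinc finger genes, for PC9-AMG, PC9-BrM4 and PC9 from left to right within each gene. From ZNF542P to ZNF544 PC9-AMG stands above both other lines, and from ZNF43 to ZNF818P it stands below them; in ZNF296 and ZNF787 both sublines lie above PC9.

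Genes with and without the KRAB pattern differed in where they lay. Of the 179 genes with the pattern, 68 were called higher in PC9-AMG than in PC9 and 36 lower, with a median of 0.18; without PC9-AMG replicate 1 the 68 became 44. Of the 32 coding genes without it, 21 were higher and 0 lower, with a median of 0.43. With the pattern 37.99% were thus called higher and 20.1% lower, and without it 65.6% were called higher. Over all genes tested 27.8% were called higher and 27.7% lower, and over the chromosome's other genes 56.8% and 11.9%. Within the last window, 35 of 38 genes with the pattern and 13 of 15 without it were called higher. The cluster between 14 and 25 Mb held 29 genes with the pattern and 0 coding genes without. The counts of calls depended on the baseline. Relative to the 20 nearest genes, an alternative added after seeing the data, 16 were higher and 55 lower with the pattern. On that footing 8 coding genes were higher and 7 lower without the pattern. Genes without it also stood at higher levels, with a median of 11.5 TPM over the 6 libraries against 5.24 TPM, and had promoters of higher GC content, at a median of 64.3% against 59%. The part of level and GC content in the counts was not tested.

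In PC9-BrM4, fewer of these genes differed from PC9: 24 were called higher and 25 lower. These are 10.7% and 11.2% of the 224, against 23.4% and 23.1% of all genes tested, where 46.6% were called in either direction. Their median was -0.02, against -0.0016 for all genes tested. Of zinc finger genes on other chromosomes, 42 of 256 were called higher and 44 lower. The 789 other tested genes of chromosome 19 had 236 called higher and 167 lower. In the last window 6 of 55 zinc finger genes were higher and 5 lower, against 6 higher and 25 lower of 58 other genes. Relative to the 20 nearest genes, the alternative added after seeing the data, 15 of the 55 were higher and 1 lower. On that footing 0 were higher and 4 lower both between 8 and 14 Mb and between 25 and 39 Mb. The counts over the 224 genes fell when any library was left out, the lower count furthest without PC9 replicate 1. Leaving out a PC9 library also lowered the counts of the other zinc finger genes and of the chromosome's other genes. A fit with 1 library fewer has less to estimate the spread from, and its part in these falls was not tested. With quantile normalization 36 of the 224 genes were higher and 19 lower, and their median turned to 0.03.

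ZNF296 and ZNF787 led here too, higher by 1.00 ± 0.11 and 0.97 ± 0.09 (limma adjusted p = 0.000287 and 0.000152), with the values per library given above. ZNF114, a KRAB gene with few fingers, was at 52.3 and 44.1 TPM in PC9-AMG, 41.1 and 44.9 TPM in PC9-BrM4, and 26.7 and 29.1 TPM in PC9. Both sublines lay above PC9, PC9-BrM4 by 0.61 ± 0.09 (limma adjusted p = 0.00138). The pseudogene ZNF702P was at 15.5 and 18.8 TPM in PC9-BrM4 and 9.93 and 10.1 TPM in PC9, higher by 0.71 ± 0.10 (limma adjusted p = 0.000833).

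Between 14 and 25 Mb, 11 of 30 zinc finger genes were called higher in PC9-BrM4 than in PC9 and 1 lower, with a median of 0.23; the 118 other genes there had 40 higher and 20 lower, with a median of 0.09. Without PC9 replicate 2 the 11 became 7. ZNF91, which represses SVA retroelements, was at 10.7 and 11.6 TPM in PC9-BrM4 and 7.27 and 7.04 TPM in PC9, higher by 0.58 ± 0.08 (limma adjusted p = 0.00106). ZNF626 was at 5.58 and 4.67 TPM in PC9-BrM4 and 2.46 and 2.66 TPM in PC9, higher by 0.78 ± 0.12 (limma adjusted p = 0.0013). ZNF257 was at 1.72 and 1.36 TPM in PC9-BrM4 and 0.566 and 0.510 TPM in PC9 (0.72 ± 0.13, limma adjusted p = 0.00303); having passed the filter through PC9-BrM4 alone, it had to be higher there. None of these 3 overlapped between the lines; ZNF826P and ZNF724P in the same window were also higher, by 0.82 ± 0.11 and 0.58 ± 0.12 (limma adjusted p = 0.000904 and 0.00492).

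The leading falls in PC9-BrM4 were small and scattered. ZNF784 was at 3.73 and 3.49 TPM in PC9-BrM4 and 6.16 and 5.24 TPM in PC9, and ZNF780A at 7.79 and 8.25 TPM in PC9-BrM4 and 12.2 and 11.9 TPM in PC9. Their differences were -0.54 ± 0.10 and -0.53 ± 0.11 (limma adjusted p = 0.00369 and 0.00558). The pseudogene ZNF137P was low in both sublines, at 1.61 and 1.63 TPM in PC9-AMG, 2.11 and 2.05 TPM in PC9-BrM4, and 3.70 and 3.33 TPM in PC9. ZNF132, ZNF230, ZNF542P, ZNF616 and ZNF446 completed the 8 largest falls, from -0.49 to -0.39, and each of these 5 calls was lost when 1 library or another of the 2 lines was left out (limma adjusted p up to 0.111). The largest negative difference of all, -1.07 ± 0.63 for ZNF20, was not called (limma adjusted p = 0.199): ZNF20 was listed at 0 and 3.30 TPM in PC9-BrM4 while the readthrough model over it, ZNF625-ZNF20, was listed at 3.28 and 0 TPM, so the pair traded values between libraries.

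Relative to PC9, 12 genes were called higher in both sublines and 4 lower in both, 6 were higher in PC9-BrM4 and lower in PC9-AMG, and 8 lower in PC9-BrM4 and higher in PC9-AMG. Of these 14 opposite pairs, 10 calls in PC9-BrM4 and 6 in PC9-AMG were lost under at least 1 alternative. In neither were 73 called. Over all genes tested 46.6% were called in PC9-BrM4 and 55.5% in PC9-AMG against PC9. Joint counts over all genes were not made, so whether those of the zinc finger genes are many or few was not tested.

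Set directly against PC9-BrM4, PC9-AMG had 108 of the 224 genes called higher and 46 lower, with a median of 0.24, where 28.1% of all genes tested were called higher and 28.0% lower, 56.1% in all. Between 14 and 25 Mb, 27 of 30 were lower and 0 higher (median -0.63), against 70 lower and 18 higher of 118 other genes. In the last window 47 of 55 were higher and 1 lower (median 0.60). Relative to the 20 nearest genes, 25 of the 224 were higher and 67 lower, 14 of the 30 were lower and 0 higher, and in the last window 12 were higher and 11 lower.

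ZNF43, with 19 fingers, showed the widest step within the centromeric cluster: 2.37 and 2.61 TPM in PC9-AMG, 6.59 and 6.99 TPM in PC9-BrM4, and 4.78 and 4.28 TPM in PC9. The 3 lines did not overlap and PC9 lay between the sublines. PC9-AMG differed from PC9-BrM4 by -1.16 ± 0.10 (limma adjusted p = 6.02e-05). ZNF85 was at 4.90 and 4.78 TPM in PC9-AMG, 9.75 and 9.41 TPM in PC9-BrM4, and 7.68 and 7.62 TPM in PC9, and ZNF91 at 5.90 and 5.75 TPM in PC9-AMG against the values given above. Both had the same order, and PC9-AMG differed from PC9-BrM4 by -0.86 ± 0.08 and -0.83 ± 0.08 (limma adjusted p = 8.96e-05 and 0.00012).

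The pseudogene ZNF542P ran the opposite way, at 3.85 and 4.07 TPM in PC9-AMG, 0.508 and 0.420 TPM in PC9-BrM4, and 1.09 and 0.882 TPM in PC9. It had the largest difference between the sublines, 1.76 ± 0.11 (limma adjusted p = 1.71e-05). ZNF790-AS1, an antisense RNA over ZNF790 and so not separable from it unless reads were assigned by strand, was higher by 1.04 ± 0.20 (limma adjusted p = 0.00317). ZNF134, ZNF324B and ZNF324 of the most distal cluster were higher by 1.00 ± 0.08, 0.99 ± 0.15 and 0.97 ± 0.10 (limma adjusted p = 5.38e-05, 0.000926 and 0.000186). ZNF568, whose mouse counterpart represses a placental Igf2 transcript, was at 3.13 and 2.64 TPM in PC9-AMG, 1.88 and 1.603 TPM in PC9-BrM4, and 2.36 and 2.19 TPM in PC9, higher by 0.50 ± 0.12 than in PC9-BrM4 (limma adjusted p = 0.00752), a call lost without PC9-AMG replicate 1.

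Of 6 genes known to bind and repress retroelements (ZNF91, ZNF93, ZNF649, ZNF765, ZNF808 and ZNF611), PC9-AMG had 0 higher and 1 lower than PC9, and PC9-BrM4 had 1 higher and 0 lower, in both cases ZNF91. That is 16.7% of the list in either comparison, against 55.5% and 46.6% of all genes tested. The ZNF91 call in PC9-AMG (-0.26, limma adjusted p = 0.0297) was lost with a replicate block and when any library of the 2 lines was left out (limma adjusted p up to 0.137). ZNF93, which binds LINE-1 elements, was at 2.64 and 3.32 TPM in PC9-AMG, 4.78 and 4.90 TPM in PC9-BrM4, and 3.52 and 3.95 TPM in PC9, and was called only between the sublines (-0.56 ± 0.11, limma adjusted p = 0.00451). Of the 5 genes of the promoter methylation list that passed the filter, PC9-AMG had 2 higher than PC9 (ZNF331 and ZNF582) and 0 lower, and PC9-BrM4 had 0 higher and 1 lower. The 40% and 20% called compare with 55.5% and 46.6% of all genes tested.

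The machinery through which KRAB proteins act was measured as well. TRIM28, itself a gene of chromosome 19, was at 399 and 427 TPM in PC9-AMG, 232 and 237 TPM in PC9-BrM4, and 255 and 261 TPM in PC9. PC9-AMG was highest without overlap, by 0.68 ± 0.05 against PC9 (limma adjusted p = 3.3e-05). TRIM28 was not set against its neighbours. The 789 tested genes of the chromosome outside the zinc finger set, TRIM28 among them, had a median of 0.29. The 58 of them from 54 Mb on had a median of 0.61. SETDB1 was at 18.8 and 17.3 TPM in PC9-AMG, 19.5 and 20.9 TPM in PC9-BrM4, and 21.6 and 22.4 TPM in PC9, and PC9-AMG differed from PC9 by -0.27 (limma adjusted p = 0.0134), a call lost without PC9-AMG replicate 2 or without PC9 replicate 2.

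Of 27 tested genes of this corepressor and heterochromatin list, 5 were called higher and 11 lower in PC9-AMG than in PC9, with a median of -0.16. The 59.3% called is near the 55.5% of all genes tested. The 11 became 5 without PC9 replicate 1, 7 without PC9 replicate 2 and 6 without PC9-AMG replicate 2, and the 5 became 3 without PC9 replicate 2 or without either PC9-AMG library. DNMT3B, a de novo DNA methyltransferase, stood at 10.3 and 10.02 TPM in PC9-AMG, 4.82 and 5.28 TPM in PC9-BrM4, and 6.08 and 5.85 TPM in PC9, and was higher in PC9-AMG by 0.68 ± 0.08 (limma adjusted p = 0.000448). CBX5, which encodes HP1 alpha, was at 56.6 and 51.0 TPM in PC9-AMG, 58.3 and 67.4 TPM in PC9-BrM4, and 97.5 and 90.0 TPM in PC9, and fell in both sublines, by 0.79 and 0.57 on the log2 scale (limma adjusted p = 0.000212 and 0.00125).

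In PC9-BrM4 2 of the 27 were higher and 8 lower than in PC9, with a median of -0.11, and the 37.0% called compare with 46.6% of all genes tested. The 2 became 0 when PC9 replicate 1 was left out and 1 when PC9-AMG replicate 1, PC9-AMG replicate 2, PC9-BrM4 replicate 2 or PC9 replicate 2 was, and the 8 became 3 when PC9 replicate 1 was left out, 5 when PC9 replicate 2 was, and 4 when PC9-BrM4 replicate 1 was. PPHLN1, a subunit of the HUSH silencing complex, was at 35.7 and 34.0 TPM in PC9-BrM4 and 51.7 and 49.5 TPM in PC9 (-0.53 ± 0.06, limma adjusted p = 0.000288).

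Of 18 further C2H2 genes of the chromosome that carry other names, 9 passed the filter, and 6 of the 9 were called higher in PC9-AMG than in PC9 and 0 lower. These 66.7% compare with 27.8% of all genes tested and 56.8% of the chromosome's other genes called higher. In PC9-BrM4 3 of the 9 were higher than in PC9 and 2 lower. These 33.3% and 22.2% compare with 23.4% and 23.1% of all genes tested. Both counts fell when any library was left out. With pairs of lines alone, and with a replicate block, 2 were higher and 1 lower. ZBTB45, at the far end of the long arm, was at 9.72 and 10.3 TPM in PC9-AMG, 3.83 and 4.69 TPM in PC9-BrM4, and 5.69 and 5.29 TPM in PC9. It was higher in PC9-AMG than in PC9 by 0.76 (limma adjusted p = 0.000711), as was ZIK1 by 0.75 (limma adjusted p = 0.000733). ZIK1 was also higher in PC9-BrM4 than in PC9, by 0.68 (limma adjusted p = 0.00151), and was not called between the sublines. Neither ZBTB45 nor ZIK1 was set against its neighbours. The 58 tested genes from 54 Mb on outside the ZNF and ZFP names had a median of 0.61.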

How the data were processed

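Libraries were TruSeq Stranded mRNA libraries of TRIzol-extracted RNA, per the labels' protocols. HISAT2 2.1.0 and StringTie 1.3.4d, beside bcl2fastq and the build hg38, are named in the submitters' processing notes. The sources used here do not give the annotation release, the strand setting or the treatment of multiply mapped reads. The authors deposited TPM, FPKM and mean coverage (a signal) per gene in 1 table per library, with symbol, strand and coordinates per the file headers. PC9-AMG tables carry EMG in their names and were assigned by the sample records. A table of the whole series, with 6 per-sample columns, was not used. No counts are given, so no counting interval is printed.

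TPM of repeated symbols were summed. Genes at 1 TPM or more in at least 2 of the 6 libraries (14195) were tested on log2(TPM + 1) with limma 3.58.1 (R 4.3.3; mean-variance trend, 1 mean per line, 3 residual degrees of freedom), at a Benjamini-Hochberg adjusted p of 0.05; the procedure was tested on simulated data. Coordinates are those of the deposited tables (hg38), fingers (2 cysteines 2 to 4 residues apart, 12 residues, 2 histidines 3 to 5 apart) and the KRAB pattern come from GENCODE release 29, and promoters from RefSeq (GRCh38.p14), aligned with Biopython 1.88. Markers of cell types and gene lists were read from the same fit, without a set test.

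Named genes are, per comparison, the 8 largest rises and falls among called genes whose libraries do not overlap, the 10 most abundant, a fixed set and the leaders of each list; some are given by name only. The members, windows, lists and tests were chosen with earlier results of these data known. Alternatives were FPKM, a pseudocount of 0.1, other filters, quantile normalization, no trend, pairs of lines alone, the highest row per symbol, a replicate block, each library left out, and, added later, removal of the neighbour median.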

Additional observations from a re-analysis of the deposited data

Results flagged for a closer look

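Each of the following genes was called in both sublines against PC9, in opposite directions, and the difference between PC9-AMG and PC9-BrM4 was itself called by limma. Those comparisons share the PC9 libraries. For genes picked this way the difference between the sublines spans both opposite differences from PC9, so it is larger than either by construction. That it was called, and stayed called, is therefore no separate support. The difference between the sublines stayed called for all 14 under every alternative chosen at the outset, whereas of the calls against PC9 10 of 14 in PC9-BrM4 and 6 of 14 in PC9-AMG were lost under at least 1 of them. ZNF43, ZNF675 and ZNF350 kept both. In PC9-BrM4 the losses were those of ZNF486, ZNF85, ZNF681, ZNF155, ZNF222, ZNF613, ZNF432, ZNF542P, ZNF772 and ZNF446, with ZNF155 lost in 10 of 15 alternatives (limma adjusted p up to 0.231). In PC9-AMG they were those of ZNF486, ZNF91, ZNF681, ZNF613, ZNF432 and ZNF772, where ZNF91 and ZNF613 were also lost with a replicate block (limma adjusted p up to 0.137 and 0.185). Of the 14, 6 were lower in PC9-AMG and higher in PC9-BrM4, all in the centromeric cluster. The log2 difference of PC9-AMG from PC9-BrM4 was -0.71 for ZNF486, -0.86 for ZNF85, -1.16 for ZNF43, -0.83 for ZNF91, -0.78 for ZNF675 and -0.73 for ZNF681.

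The other 8 lay on the long arm and were higher in PC9-AMG and lower in PC9-BrM4. The difference was 0.91 for ZNF155, 0.86 for ZNF222, 0.56 for ZNF613, 0.79 for ZNF350, 0.59 for ZNF432, 1.76 for ZNF542P, 0.85 for ZNF772 and 0.84 for ZNF446. ZNF350 encodes ZBRK1, a partner of BRCA1. It stood at 15.0 and 14.3 TPM in PC9-AMG, 7.98 and 8.20 TPM in PC9-BrM4, and 11.0 and 10.7 TPM in PC9. ZNF155 and ZNF350 overlap models on the opposite strand.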

How the results depend on the processing

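Of 82 called differences of named genes, 65 stayed called in the same direction under every alternative chosen at the outset and 17 were lost in at least 1; 0 reversed. Leaving out a library gave 67 to 96 higher and 27 to 38 lower genes for PC9-AMG with PC9, 79 to 105 and 33 to 43 for PC9-AMG with PC9-BrM4, and 15 to 23 and 7 to 20 for PC9-BrM4 with PC9, a lone library being assumed to vary like the others. The last comparison also had 16 lower genes, not 25, without the filter on low values, where more genes are tested. Same-numbered libraries did not deviate together (correlations of -0.028, -0.063 and -0.069 in that order), so the numbers were not taken to pair them; a replicate block gave 88 higher and 36 lower, 104 and 42, and 21 and 18 in the same order. Relative to the 20 nearest genes, an alternative added after seeing the data, the counts were 26 higher (25 of them among the 94) and 67 lower (27 among the 38) for PC9-AMG with PC9, and 25 higher for PC9-AMG with PC9-BrM4. The sign then turned for 6 called differences of PC9-AMG from PC9, ZNF264 (-0.0165), ZNF331 (-0.137), ZNF428 (-0.042), ZNF473 (-0.14), ZNF580 (-0.0768) and ZNF91 (0.015), and for 7 of PC9-AMG from PC9-BrM4, ZNF264 (-0.10), ZNF274 (-0.18), ZNF331 (-0.0923), ZNF428 (-0.37), ZNF580 (-0.56), ZNF581 (-0.11) and ZNF787 (-0.30). For PC9-BrM4 with PC9, the cause of the losses was not tested. With 2 libraries a line and levels near 5 TPM, small differences may have been missed.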
